A study of Homo sapiens with 10 samples.

Results

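The 10 genes described here belong to the integrated stress response and its transcription factor ATF4: ATF4, ATF5, DDIT3, ASNS, TRIB3, CHAC1, SESN2, DDIT4, PSAT1 and PHGDH. They were taken by gene symbol, and the set was chosen with earlier results of these data known. Each had 1 row among the 28265 symbols counted in every library. All 10 passed the filter on low counts, which kept 21014 genes for testing. RNA was sequenced from NKX2-1 GFP+ cells sorted out of thyroid organoids that had been grown from human embryonic stem cells, with 2 biological replicates on each of days 16, 23, 31, 38 and 45. The question here is how these genes were expressed as the culture medium was changed step by step toward thyroid maturation.

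All groups came from the line ESIBIe003-A-6, an engineered human embryonic stem cell line made from selected clones. One NKX2-1 allele carries GFP, and a lentiviral cassette gives NKX2-1 and PAX8 when doxycycline is present. Every group had received activin A and a short exposure to doxycycline before day 16. The day 16 libraries carry a c-AMP label, although by the study's methods the cells had been in basal medium until then. The day 23 and day 31 groups were cultured with 8-br-cAMP, a cell-permeable form of the second messenger that acts downstream of the thyrotropin receptor. By the methods the medium had been changed shortly before the last of these collections. The day 38 group had recombinant human thyrotropin (hrTSH) with dexamethasone, a synthetic glucocorticoid, and by the study's text the next change of medium may have begun shortly before its collection. The day 45 group had hrTSH with SB431542, an inhibitor of TGF-beta receptor kinases, and by the methods still received dexamethasone. Day and medium therefore changed together and cannot be told apart. Cells kept in cAMP to the later days were not analysed here. Each library was made from 10000 sorted cells with wells pooled before sorting, and held between 7247268 counts (day 45 replicate 1) and 10333933 counts (day 38 replicate 1). In each library 3 counts, the fewest that can be told from 0, corresponded to between 0.307 and 0.436 CPM, the count scaled to the size of its library after adjustment by edgeR's trimmed mean of M values (TMM), the scale of all CPM values here. With sorted bulk samples, fewer cells of a type and less RNA per cell cannot be told apart.

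The integrated stress response begins with kinases that phosphorylate the translation factor eIF2α when amino acids run short, unfolded proteins collect in the endoplasmic reticulum (ER), haem is lacking or double-stranded RNA appears. Bulk protein synthesis then falls, while the ATF4 mRNA, held in check by upstream open reading frames, is translated more. ATF4 protein pairs with C/EBP proteins on composite C/EBP-ATF response elements and raises genes for amino acid uptake and synthesis, tRNA charging, redox defence and, with DDIT3 (CHOP), cell death. The mRNA level of ATF4 is thus not a measure of its protein, and no protein was measured.

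Because ATF4 acts on its targets through a DNA element, the stretches of promoter that hold it are shown. The core of the element was searched for as TGATGNAA on both strands in the 500 bases before each RefSeq transcript start on GRCh38, a window set after matches had been seen. It was found in 5 of the 10 genes, against 7.49% of 27305 genes. In RefSeq's own promoter windows of 300 bases, it was found in 2 of the 10 genes, against 4.46% of genes. Each stretch below reads 5′ to 3′ on the strand of its gene, and capitals mark the 8 bases of the match. In ASNS the match is read directly, and in the others it lies on the opposite strand.
ASNS: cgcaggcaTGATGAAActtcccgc
CHAC1: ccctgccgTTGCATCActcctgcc
DDIT3: gccaaacaTTGCATCAtccccgcc
SESN2: aagtccctTTTCATCAcgcaaccc
TRIB3: gctccggtTTGCATCAcccggacc

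The matches were at chr7:97872469-97872476 for ASNS, 68 bases before its RefSeq start (position 97872408), and at chr15:40953262-40953269 for CHAC1, 209 bases before position 40953471. They were at chr12:57520813-57520820 for DDIT3, 303 bases before position 57520517, and at chr1:28259222-28259229 for SESN2, 296 bases before position 28259518. TRIB3 held 3 copies of the same stretch spaced 33 bases apart, at chr20:380892-380899, chr20:380925-380932 and chr20:380958-380965, which is 403, 370 and 337 bases before position 381295. The GENCODE 44 models of ASNS, CHAC1, DDIT3 and TRIB3 begin further upstream than these starts, so that the matches lie inside the spans of those models. CHAC1, DDIT3 and TRIB3 share the same 8 letters. ATF4, ATF5, DDIT4, PSAT1 and PHGDH had no match in this window, which says only that these letters are not there. Binding of ATF4 was not measured.

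Across the time course the 10 genes did not move as 1 block. Between day 31 and day 38 ATF5, TRIB3, DDIT4 and PSAT1 rose, from 3.22-fold (PSAT1) and 6.74-fold (ATF5) to 11.8-fold (DDIT4) and 12.4-fold (TRIB3). Between day 38 and day 45 ATF4 rose 1.89-fold and DDIT3 2.29-fold, while DDIT4 and PSAT1 fell. Between day 16 and day 23 only DDIT4 among the 10 passed the threshold given below, and between day 23 and day 31 none did. The test was edgeR's quasi-likelihood F test, with 1 fit of the 10 libraries, a mean for each day and a Benjamini-Hochberg adjustment over the 21014 genes. A gene is called here at an adjusted p-value under 0.05.

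**Figure D1:**
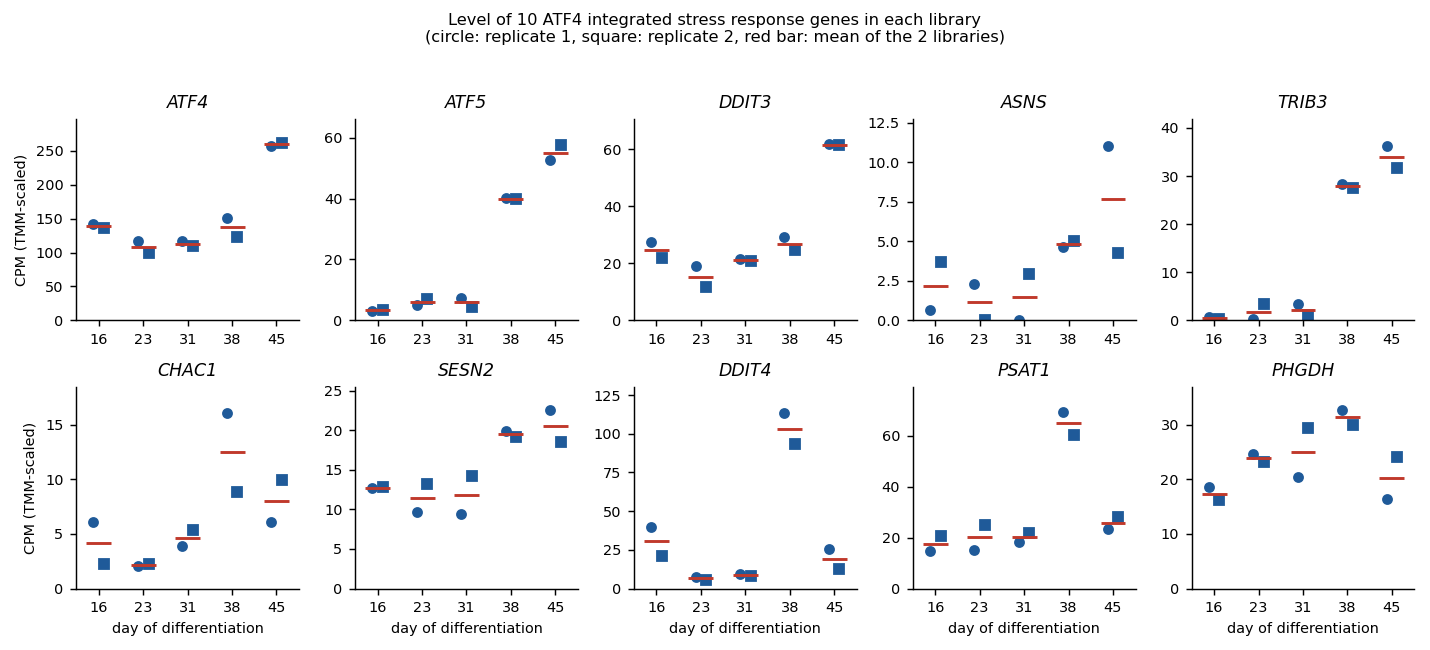
Level of each of the 10 genes (vertical axis, TMM-scaled CPM, own scale from 0 for each gene) against day of differentiation (horizontal axis); circles and squares are replicates 1 and 2, and red bars are the mean of the 2 libraries. ATF5 and TRIB3 are low up to day 31 and high at days 38 and 45, DDIT4 and PSAT1 peak at day 38, and ATF4 and DDIT3 are highest at day 45.

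ATF4, on chromosome 22 (39519695-39522683, GRCh38, GENCODE 44), encodes the central activator of the response. It measured 141 and 136 CPM (day 16), 118 and 99.9 (day 23), 117 and 109 (day 31), 151 and 123 (day 38), and 257 and 262 (day 45). The day 45 libraries lay above the other 8 without overlap, whereas days 16 and 38 overlapped each other, as did days 23 and 31. ATF4 rose 1.89-fold between day 38 and day 45 (log2 fold change 0.92, SE 0.14, adjusted p = 1.57e-05), and 1.87-fold between day 16 and day 45 (adjusted p = 6.73e-06). Between day 31 and day 38 its log2 fold change was 0.28 (SE 0.14, adjusted p = 0.216), which does not pass the threshold. The steps were not tested against each other.

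ATF5 encodes a related bZIP activator whose mRNA also carries upstream reading frames. It measured 3.17 and 3.45 CPM (day 16), 4.99 and 7.09 (day 23), 7.37 and 4.42 (day 31), 40.2 and 39.8 (day 38), and 52.6 and 57.5 (day 45). Every library of days 38 and 45 was above every library of the first 3 days. The gene rose 6.74-fold between day 31 and day 38 (log2 fold change 2.75, SE 0.33, adjusted p = 6.67e-08). From day 38 to day 45 the libraries did not overlap either, but the log2 fold change of 0.46 (SE 0.29) did not pass (adjusted p = 0.38). Of its exon bases on chromosome 19 (49928702-49933935), 19.5% overlap genes on the other strand (NUP62, IL4I1), and the strand setting of the counting is not given in the sources used here, so part of its count could come from them.

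DDIT3 encodes CHOP, a C/EBP-family factor that ATF4 induces and that is known for its part in stress-induced cell death. It measured 27.4 and 21.9 CPM (day 16), 19.1 and 11.8 (day 23), 21.5 and 20.8 (day 31), 29.2 and 24.8 (day 38), and 61.9 and 61.6 (day 45). As for ATF4, both day 45 libraries stood above all others, and days 16 and 38 overlapped. DDIT3 rose 2.29-fold between day 38 and day 45 (log2 fold change 1.19, SE 0.27, adjusted p = 0.00182). Without day 38 replicate 2 the log2 fold change was 1.08 and the adjusted p was 0.0686, so this call rests on that library. Against day 16 the day 45 level was 2.5-fold higher (adjusted p = 0.000223). Of its exon bases on chromosome 12 (57516588-57521737), 31.6% overlap genes on the other strand and 8.03% genes on its own strand (MARS1 and MBD6 among them), so its count is uncertain to that extent.

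TRIB3, a pseudokinase that binds ATF4 and CHOP and dampens them, was near the limit of detection in the first libraries. Its counts were 5 and 2 (day 16), 2 and 29 (day 23), 33 and 9 (day 31), 263 and 236 (day 38), and 250 and 290 (day 45). In CPM the last 4 libraries were at 28.4, 27.5, 36.3 and 31.7, and none of the first 6 was above 3.38. The replicates of day 23 differed widely, with 0.222 and 3.32 CPM, and those of day 31 with 3.38 and 1.05. TRIB3 rose 12.4-fold between day 31 and day 38 (log2 fold change 3.63, SE 0.56, adjusted p = 9.76e-06), and its log2 fold change to day 45 was 0.28 (adjusted p = 0.801). The size of the rise depends on the day 31 libraries, with a log2 fold change of 4.72 without day 31 replicate 1 and of 3.04 without replicate 2, called in both cases. Day 45 was also called above day 16 (adjusted p = 1.02e-08), a size not given here since it rests on the few day 16 counts.

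CHAC1, an enzyme that degrades glutathione and a sensitive reporter of ATF4 and CHOP in other settings, stayed low. It measured 6.09 and 2.22 CPM (day 16), 2.11 and 2.29 (day 23), 3.89 and 5.35 (day 31), 16.1 and 8.85 (day 38), and 6.1 and 9.94 (day 45). The day 38 libraries were above those of day 31 but overlapped those of day 45, and replicates of days 16 and 38 differed from each other. In no comparison of 2 days was CHAC1 called, and between day 31 and day 38 its log2 fold change was 1.43 (SE 0.59, adjusted p = 0.107). The test over all 5 days did call it (adjusted p = 0.0103).

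SESN2 and DDIT4 both encode stress-induced inhibitors of the growth kinase complex mTORC1. SESN2, or sestrin 2, measured 12.7 and 12.8 CPM (day 16), 9.64 and 13.2 (day 23), 9.42 and 14.2 (day 31), 19.9 and 19.1 (day 38), and 22.5 and 18.5 (day 45). The libraries of days 38 and 45 overlapped each other and lay above the first 6. The log2 fold change between day 31 and day 38 was 0.72 (SE 0.36, adjusted p = 0.194), and no comparison called the gene.

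DDIT4, known as REDD1, is also a known target of glucocorticoids and of low oxygen. It measured 39.8 and 21.2 CPM (day 16), 7.65 and 5.72 (day 23), 9.62 and 7.8 (day 31), 113 and 93.3 (day 38), and 25.4 and 12.8 (day 45). Day 38 stood above all other libraries, days 23 and 31 were lowest, and days 16 and 45 overlapped in between. DDIT4 fell by 2.19 on the log2 scale between day 16 and day 23 (SE 0.32, adjusted p = 7.61e-06). It rose 11.8-fold between day 31 and day 38 (log2 fold change 3.56, SE 0.32, adjusted p = 1.66e-10), and by day 45 was 5.45-fold lower again (log2 fold change −2.45, SE 0.30, adjusted p = 3.52e-07). The last 2 comparisons use the same day 38 libraries.

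PSAT1 and PHGDH encode enzymes of the serine synthesis pathway, and ASNS makes asparagine. PSAT1 measured 14.6 and 20.8 CPM (day 16), 15.2 and 25.2 (day 23), 18.4 and 21.9 (day 31), 69.3 and 60.4 (day 38), and 23.5 and 28 (day 45). Only the day 38 libraries stood apart from the rest, and the other 4 days spanned 14.6 to 28 CPM. PSAT1 rose 3.22-fold between day 31 and day 38 (log2 fold change 1.69, SE 0.28, adjusted p = 2.58e-05) and was 2.52-fold lower at day 45 than at day 38 (log2 fold change −1.33, SE 0.28, adjusted p = 0.000812). Day 45 and day 16 differed by a log2 fold change of 0.54 (adjusted p = 0.174).

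PHGDH, which opens that pathway, measured 18.6 and 16.1 CPM (day 16), 24.6 and 23.2 (day 23), 20.5 and 29.4 (day 31), 32.7 and 29.9 (day 38), and 16.4 and 24.1 (day 45). Both day 38 libraries were the highest, just above day 31 replicate 2, and no comparison called the gene. The log2 fold change between day 31 and day 38 was 0.33 (SE 0.29, adjusted p = 0.526).

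ASNS, a standard ATF4 target, could not be followed. Its counts were 5 and 30 (day 16), 21 and 0 (day 23), 0 and 25 (day 31), 43 and 43 (day 38), and 76 and 39 (day 45). Replicates of 1 day were thus as far apart as 0 and 25 counts, and no comparison called it (between day 31 and day 38, log2 fold change 1.74, SE 1.13, adjusted p = 0.358). Of its exon bases on chromosome 7 (97851677-97872542), 49.3% are shared on the same strand with an overlapping readthrough gene, CZ1P-ASNS, which had a row of its own with 17 to 73 counts per library. Reads that fit both genes cannot be given to 1 of them, and the count of ASNS is therefore uncertain.

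Compared per kilobase of exon, ATF4 was the most abundant of the 10 on every day, with a mean level of 53.1 CPM per kb at day 16 and 99.3 at day 45. DDIT3 followed at day 45 with 47.2, then ATF5 with 19.0, PSAT1 with 11.7, TRIB3 with 10.3 and DDIT4 with 9.01 CPM per kb. At day 38 DDIT4 (48.7 CPM per kb) was close to ATF4 (52.5), and PSAT1 (29.4) came ahead of DDIT3 (20.6). The shares of each gene's own highest daily mean show the same order in time. At day 31 TRIB3 was at 6.51%, DDIT4 at 8.44% and ATF5 at 10.7% of their highest mean, against 43.5% for ATF4 and 79.7% for PHGDH.

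**Figure D2:**
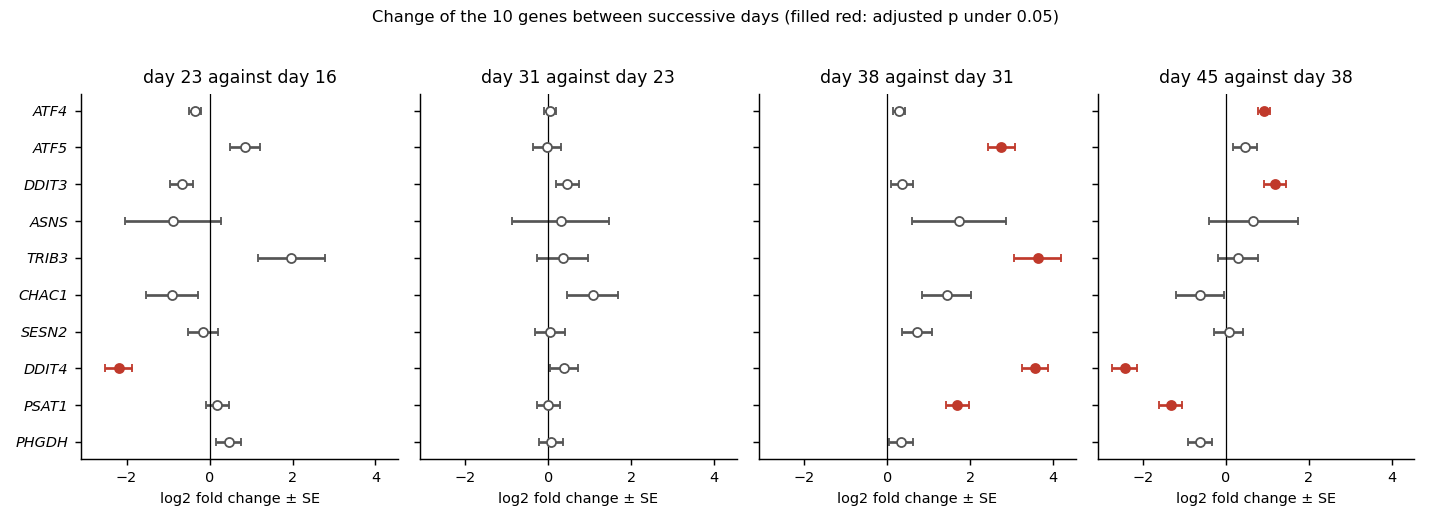
Log2 fold change of each of the 10 genes (horizontal axis, point with its standard error) for the 4 steps between successive days, 1 panel for each; filled red points have an adjusted p-value under 0.05 in edgeR's quasi-likelihood test. There is 1 red point in the first panel (DDIT4), none in the second, 4 in the third (all to the right of 0) and 4 in the last (ATF4 and DDIT3 to the right, DDIT4 and PSAT1 to the left).

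Set against all genes tested, the called members stood as follows. The 10 genes were chosen with earlier results of these data known, so these shares describe the members and do not test them as a set. Between day 16 and day 23 none of the 10 was called higher and 1 lower, where 5.6% of all genes were called higher and 5.33% lower. There 2 of the 10 were higher and 3 lower at an unadjusted p under 0.05, and DESeq2 called none higher and 1 lower. Between day 23 and day 31 none was called either way, with a background of 1.58% higher and 0.666% lower. In that step none of the 10 had an unadjusted p under 0.05 in edgeR and none was called by DESeq2. Between day 31 and day 38, 4 of 10 were called higher and none lower, against 8.8% and 6.23% of all genes, and the log2 fold change was above 0 in all 10. At an unadjusted p under 0.05, 6 were higher and none lower, and DESeq2 called 4 and none. Their median log2 fold change was 1.56 there, where that of all genes was 0. Between day 38 and day 45, 2 of 10 were called higher and 2 lower, against 4.85% and 6.35%, with a median of 0.18 (all genes −0.02). From day 16 to day 45, ATF4, ATF5, DDIT3 and TRIB3 were called higher and none lower, against 12.9% and 11.7%. In the test over all 5 days 7 of 10 were called, against 36.3% of all genes, the exceptions being ASNS, SESN2 and PHGDH.

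Over the 10 libraries the pairs of members had a median Pearson r of 0.60 on log2 CPM, and 43 of the 45 pairs were above 0. The libraries share days and media, so this describes the pattern and is not a test. The most alike pairs were ATF4 with DDIT3 and ATF5 with TRIB3 (both r = 0.97), and the least alike ATF4 with PHGDH (r = −0.30). Among 13106 other genes with a mean of at least 5 CPM, the patterns nearest to the mean of the 10 members were those of EGLN3 (r = 0.99 over 10 libraries), which encodes an oxygen-dependent prolyl hydroxylase, ITGA1, SERPINF1, PCSK5, PLOD1, SLC29A4, RPL29 and HTRA1 (r between 0.98 and 0.99). The mean level of EGLN3 was 13.5 CPM (day 31), 108 (day 38) and 60.6 (day 45). Nearest to ATF4 were KLHL15 (r = 0.99), MAT2A, HOMER1, LRIF1 and JMJD6 (r between 0.96 and 0.97). The mean level of KLHL15 was 159 CPM (day 38) and 544 (day 45), and that of MAT2A, which makes S-adenosylmethionine, 225 and 365.

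Upstream of ATF4 stand 4 eIF2α kinases, and 1 of them, EIF2AK3 (PERK, the kinase that senses unfolded proteins in the ER), rose in both late steps. It measured 69.2 and 70.4 CPM (day 16), 57.4 and 50.8 (day 23), 79.8 and 69 (day 31), 108 and 97.8 (day 38), and 209 and 235 (day 45). Days 38 and 45 lay above all earlier libraries and did not overlap. Its log2 fold change was 0.47 between day 31 and day 38 (adjusted p = 0.0362) and 1.10 between day 38 and day 45 (adjusted p = 2.84e-06).

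The other kinases moved little. EIF2AK2 (PKR, the sensor of double-stranded RNA) fell by 0.46 on the log2 scale between day 31 and day 38 (adjusted p = 0.0375). EIF2AK4 (GCN2, the sensor of uncharged tRNA) fell by 0.48 between day 38 and day 45 (adjusted p = 0.046), a call that DESeq2 did not make. EIF2AK1 (HRI, the haem-regulated kinase) was at 158 and 144 CPM at day 38 against 135 and 131 at day 31 and was not called. With DELE1 and OMA1, which relay mitochondrial stress to HRI, this list of 6 had 1 gene called higher and 1 lower in each of the last 2 steps. Of a list of 9, which holds the subunits of eIF2 and its exchange factor eIF2B with the separate initiation factor EIF2A, none was called at day 38 against day 31, and 1, EIF2S2, rose to day 45 (log2 fold change 0.66, adjusted p = 0.00862).

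Both regulatory subunits of the phosphatase that acts on eIF2α rose between day 38 and day 45. PPP1R15A (GADD34), the stress-induced regulatory subunit of the phosphatase, was at 93.4 and 89.4 CPM at day 38 and at 250 and 205 at day 45 (log2 fold change 1.31, adjusted p = 1.09e-07). PPP1R15B, the constitutive subunit, was at 200 and 175 CPM at day 38 and at 484 and 489 at day 45 (log2 fold change 1.38, adjusted p = 3.12e-09). For both genes the day 45 libraries were the highest of the 10. DNAJC3, an ER chaperone that also inhibits PERK, rose in both late steps, by 0.73 (adjusted p = 0.00068) and 0.47 (adjusted p = 0.036), and the catalytic subunit gene PPP1CB rose between day 31 and day 38 (log2 fold change 0.61, adjusted p = 0.00165). In all, 2 of this list of 6 were called higher at day 38 against day 31 and 3 at day 45 against day 38, with none lower.

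Among the bZIP factors with which ATF4 pairs, or that it induces, CEBPG and NFE2L1 were called between day 31 and day 38, and ATF3, CEBPB and NFE2L2 between day 38 and day 45. CEBPG, a dimerization partner of ATF4, measured 34.7 and 46.4 CPM (day 31), 95.8 and 97.3 (day 38), and 98.7 and 99.7 (day 45), and rose between day 31 and day 38 (log2 fold change 1.25, adjusted p = 3.86e-05). ATF3, CEBPB and NFE2L2 (NRF2, the activator of antioxidant genes) rose between day 38 and day 45, by 0.98, 1.54 and 0.93 on the log2 scale (adjusted p = 4.17e-06, 0.00142 and 6.57e-06). ATF3 was at 143 and 137 CPM at day 38 and at 278 and 275 at day 45. Earlier, ATF3 had fallen by 0.85 at day 23 (adjusted p = 6.79e-05) and risen by 0.82 at day 31 (adjusted p = 0.000449), and JDP2, a repressor, had fallen by 1.56 at day 23 (adjusted p = 8.12e-05). CEBPB and ATF3 each stand on a further list below as well. Over the list of 8, which also holds the stress-induced regulator NUPR1, 2 were called higher at day 38 and 3 at day 45, none lower, with medians of 0.72 and 0.95. All 8 had a log2 fold change above 0 in both steps. For 1 of them, BATF3, named here for its low counts, the sign is uncertain. Its counts were 0 and 0 (day 31), 3 and 0 (day 38), and 9 and 1 (day 45). Between day 31 and day 38, 6 were higher at an unadjusted p under 0.05, CEBPB among them (log2 fold change 0.82, adjusted p = 0.111), and DESeq2 called 3. The 2 steps were not tested against each other.

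**Figure D3:**
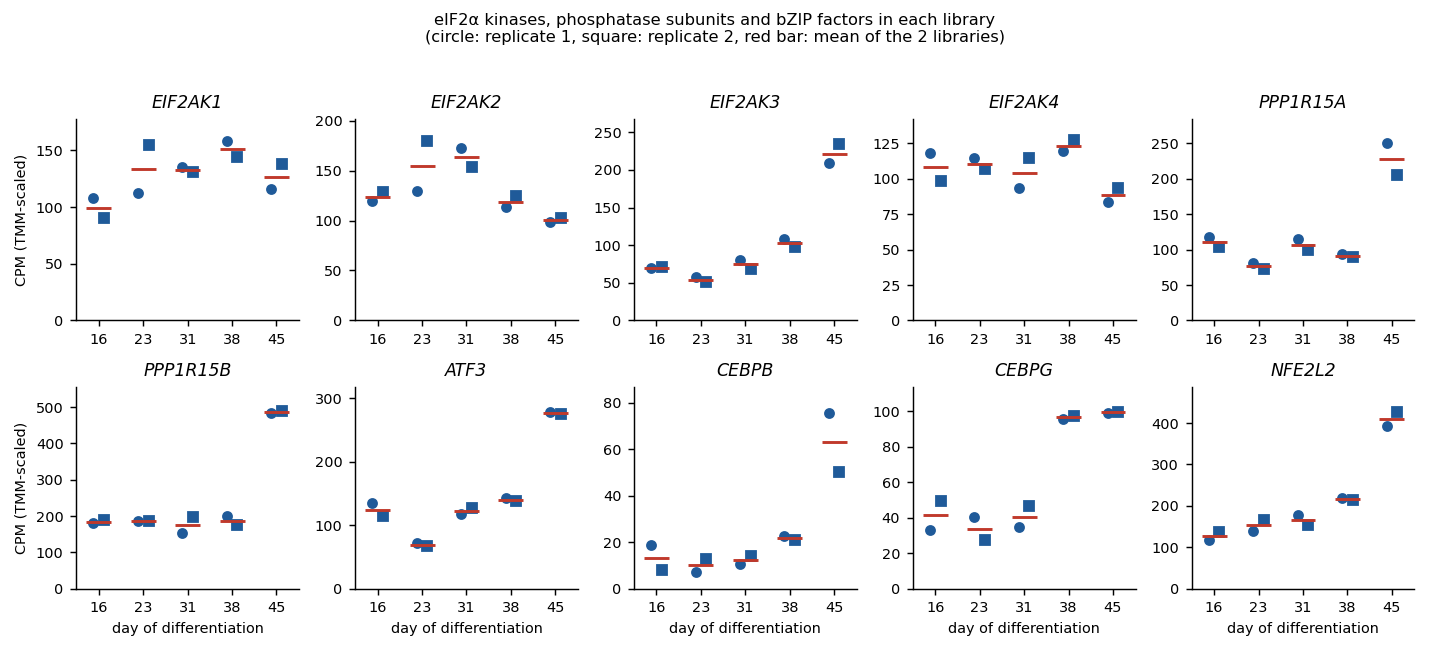
Level of the 4 eIF2α kinases, 2 phosphatase subunits and 4 bZIP factors (vertical axis, TMM-scaled CPM, own scale from 0 for each gene) against day of differentiation; circles and squares are replicates 1 and 2, and red bars their mean. EIF2AK3, PPP1R15A, PPP1R15B, ATF3, CEBPB and NFE2L2 are highest at day 45, while CEBPG reaches its upper level at day 38.

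Of 8 enzymes beside PSAT1 and PHGDH in serine, glycine and folate-bound carbon metabolism, 4 were called higher and none lower between day 31 and day 38, with a median log2 fold change of 0.70. MTHFD2, the mitochondrial folate enzyme, was at 19.9 and 22.2 CPM at day 31 and at 98.2 and 99.4 at day 38 (log2 fold change 2.23, adjusted p = 2.35e-09). ALDH1L2 (3.36, adjusted p = 9.45e-05), SHMT2 (1.00, adjusted p = 0.00236) and MTHFD1L (0.98, adjusted p = 0.00203) also rose. ALDH1L2 started from 0.614 and 4.54 CPM, and its size is loosely set. No gene of the list was called between day 38 and day 45, by edgeR or DESeq2. There the log2 fold change of all 8 was below 0 with a median of −0.45, and 3 were lower at an unadjusted p under 0.05.

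Amino acid transporters held members of both patterns. SLC7A11, the cystine carrier, went from 22.3 and 24 CPM at day 31 to 136 and 153 at day 38 (log2 fold change 2.64, adjusted p = 1.22e-12), and SLC7A5, the leucine carrier, from 36 and 46.9 to 149 and 125 (1.73, adjusted p = 2.2e-07). SLC3A2, the shared heavy chain of both carriers, was called between day 38 and day 45 instead, from 67.2 and 63 CPM to 183 and 150 (1.35, adjusted p = 4.3e-07). So was SLC38A2, a carrier of small neutral amino acids, from 586 and 623 to 1397 and 1421 CPM (1.22, adjusted p = 5.38e-10). Of 11 transporters, 2 were called higher at day 38 and 3 at day 45, none lower.

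Aminoacyl-tRNA synthetases commonly placed under ATF4, with the tRNA exporter XPOT, had 7 of 13 called higher and none lower between day 31 and day 38, and a log2 fold change above 0 in all 13 (median 0.44). The largest of these changes were in IARS1 (0.97, adjusted p = 1.15e-06), GARS1 (0.87, adjusted p = 0.000501) and TARS1 (0.71, adjusted p = 0.000475). Among 8 other cytosolic synthetase genes 1 was called higher, with a median of 0.06. From day 38 to day 45 none of the 13 and none of the 8 was called by edgeR or DESeq2, and 2 of each list were lower at an unadjusted p under 0.05. The lists were not tested against each other.

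Enzymes of proline, transamination and sulfur amino acid metabolism had none of 8 called higher and 1 lower between day 31 and day 38 (median 0.36), and 1 higher and 1 lower between day 38 and day 45 (median −0.50). GPT2, an alanine transaminase, fell by 1.15 on the log2 scale between day 38 and day 45 (adjusted p = 0.0078). CTH, which makes cysteine, had fallen by 1.63 between day 16 and day 23 (adjusted p = 0.00105).

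Of 15 further genes reported as ATF4 or CHOP targets, 14 were tested, since FGF21 was at 0 in all libraries. Between day 31 and day 38, 7 were called higher and 2 lower (median 0.84). VEGFA, an angiogenic factor, went from 173 and 169 CPM to 1374 and 1303 (log2 fold change 2.96, adjusted p = 3.94e-19), STC2, a secreted glycoprotein, from 14.2 and 12.2 to 97.6 and 98.5 (2.89, adjusted p = 2.02e-11), and ERO1A, the ER oxidase, from 123 and 107 to 548 and 527 (2.23, adjusted p = 4.31e-14). NIBAN1 also rose (3.13, adjusted p = 0.000434), and KLHL24 fell by 1.45 (adjusted p = 4.07e-11). Like DDIT4, VEGFA and STC2 fell again to day 45, by 0.58 (adjusted p = 0.000401) and 0.75 (adjusted p = 0.0202). In that step 4 of the 14 were called higher and 2 lower (median 0.29). SQSTM1, an autophagy receptor that NRF2 also drives, was called higher at day 45 (1.65, adjusted p = 2.98e-09). GDF15, a secreted stress signal, rose earlier, between day 16 and day 23 (adjusted p = 2.61e-06). It went from 0.634 and 0.123 CPM (5 and 1 counts) at day 16 to 5.43 and 14.3 CPM at day 23. Of the 14, 4 were called higher and 3 lower between day 16 and day 23. Between day 23 and day 31, 3 were called higher and none lower.

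**Figure D4:**
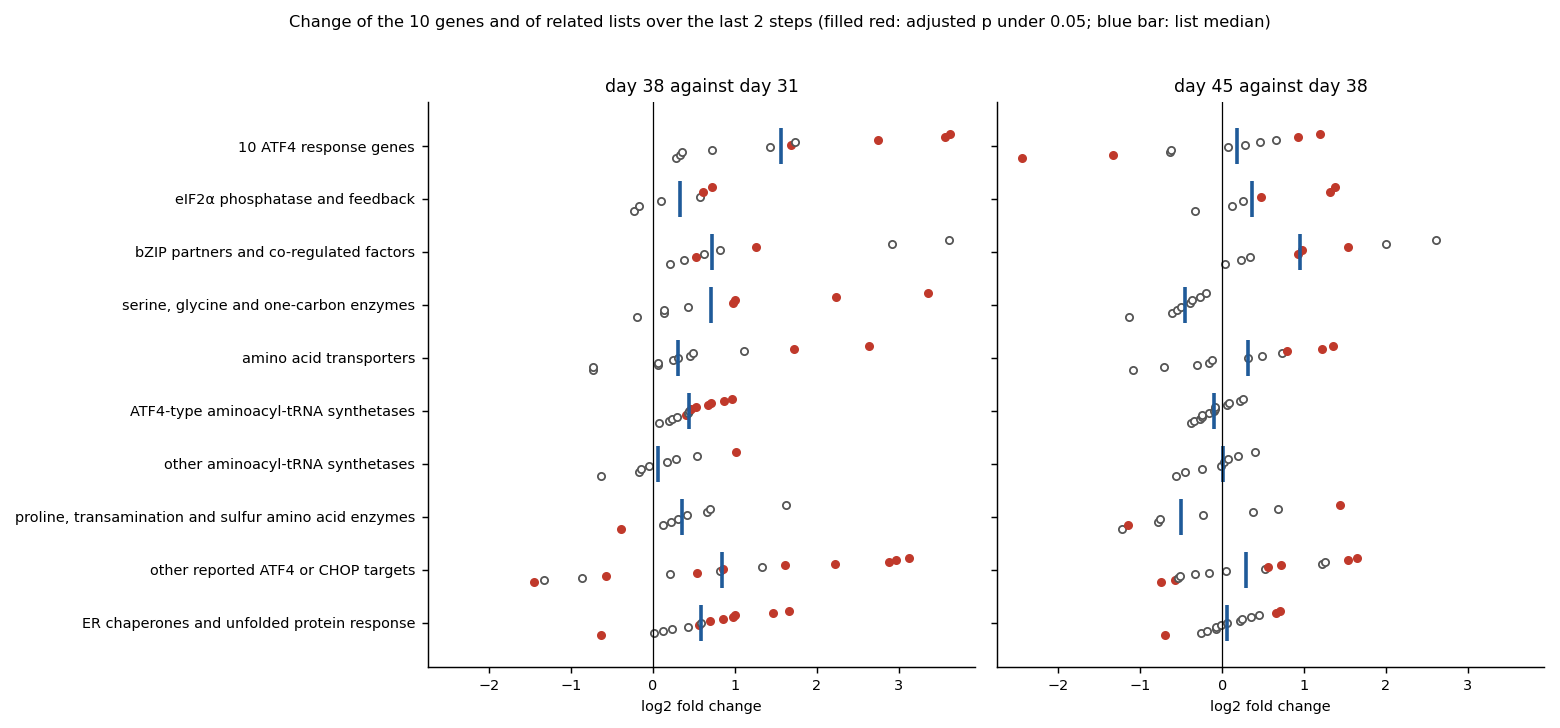
Log2 fold change (horizontal axis) of each gene of 10 lists (rows) between day 31 and day 38 (left) and between day 38 and day 45 (right); filled red points have an adjusted p-value under 0.05 in edgeR's quasi-likelihood test, and blue bars are list medians. On the left the medians lie between 0.06 (other aminoacyl-tRNA synthetases) and 1.56 (the 10 genes), and on the right between −0.50 (proline, transamination and sulfur amino acid enzymes) and 0.95 (bZIP partners and co-regulated factors).

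Other programs moved in the same steps, and their values are set beside those of the 10 genes because their part in the result was not tested. A list of ER chaperones with sensors and degradation factors of the neighbouring unfolded protein response had 7 of 13 called higher between day 31 and day 38, when ATF5, TRIB3, DDIT4 and PSAT1 rose. The 1 gene called lower was EDEM1, an ER degradation factor (log2 fold change −0.64, adjusted p = 0.00512), named here after its value was seen. HSPA5 (BiP) went from 315 and 290 CPM to 870 and 799 (log2 fold change 1.46, adjusted p = 1.15e-11) and DNAJB9 from 33.2 and 26 to 92.9 and 94 (1.66, adjusted p = 6.85e-08). The summed level of the 13 genes went from 2044 and 2019 CPM to 3874 and 3684, and stood at 3740 and 3939 at day 45. Between day 38 and day 45, 2 of the 13 were called higher and 1 lower. Those higher were DNAJB11 (log2 fold change 0.70, adjusted p = 0.0211) and DNAJB9 (0.66, adjusted p = 0.0171).

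Genes that glucocorticoids induce had 4 of 7 called higher at day 38, when dexamethasone was in the medium. FKBP5 went from 34.1 and 39.8 CPM to 142 and 157 (log2 fold change 2.02, adjusted p = 3.98e-08) and TSC22D3 from 66.7 and 51.9 to 140 and 120 (1.13, adjusted p = 4.9e-06). At day 45 FKBP5 was at 123 and 129 CPM and TSC22D3 at 131 and 122, and neither was called. In that step none of the 7 was called higher and 1 lower, DUSP1, a phosphatase of MAP kinases and the most abundant of them (log2 fold change −0.37, adjusted p = 0.0276).

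Genes that enzymatic dissociation can induce, immediate early genes with the heat shock genes HSPA1A and HSPA1B, had none of 9 called between day 31 and day 38 by edgeR or DESeq2, with 1 higher and 1 lower at an unadjusted p under 0.05. Between day 38 and day 45, 2 were called higher and 4 lower. FOS fell by 2.02 (adjusted p = 5.72e-15), from 1518 and 1401 CPM to 382 and 338. The 2 called higher were ATF3, which rose in the same step as ATF4 and DDIT3, and FOSB. FOSB went from 378.8 and 396.5 CPM to 706.6 and 653.3 (log2 fold change 0.81, adjusted p = 4.78e-05).

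The labelled cell type was checked against its markers. NKX2-1, by whose reporter the cells were sorted, was between 58.1 and 157 CPM, and PAX8 between 477 and 728, and reads from the transgenes cannot be told apart from these. TG, the thyroglobulin gene, measured 200 and 212 CPM (day 31), 5547 and 4875 (day 38), and 7964 and 7525 (day 45), and the epithelial gene EPCAM was between 245 and 443 throughout. Of 10 thyroid markers, 4 were called higher and none lower between day 31 and day 38. Between day 38 and day 45, when ATF4 and DDIT3 rose, TG was called higher and 3 transcription factors lower. NKX2-1 itself fell by 1.20 on the log2 scale (adjusted p = 6.3e-07), from 154 and 133 CPM to 58.1 and 66.7, HHEX by 0.86 (adjusted p = 3.7e-05) and FOXE1 by 0.82 (adjusted p = 4.01e-05).

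Markers of other cell types were measured beside these. The summed level of 11 cardiovascular and mesenchymal markers went from 1333 and 1539 CPM at day 31 to 3299 and 3488 at day 38, with 6 called higher and 1 lower, and stood at 3557 and 2873 at day 45. Between day 38 and day 45 3 of them were called higher and none lower, DCN (log2 fold change 1.36, adjusted p = 0.00041), PDGFRA (1.25, adjusted p = 0.00636) and LUM (0.94, adjusted p = 0.000279), in the step in which ATF4 and DDIT3 rose. The list's most abundant gene was COL3A1 (mean 1237 CPM), and the endothelial marker PECAM1 was at 0 in 7 of the libraries. The sum of 7 airway and goblet markers, led by MUC5B, went from 31.9 and 49.5 to 76.8 and 60.4 CPM at day 38 and 154 and 101 at day 45, with 2 called higher and 1 lower in each step. The ciliated cell marker FOXJ1 went from 20.0 and 20.8 to 5.83 and 6.06 CPM at day 38 (log2 fold change −1.78, adjusted p = 0.000995). Within the list the goblet marker MUC5AC was high at day 38 alone among the 5 days, with 1.53 and 0.815 CPM (day 31), 29.7 and 21.9 (day 38), and 0.435 and 2.08 (day 45), and was called in both steps (adjusted p = 2.8e-05 and 6.24e-05). The sum of 7 distal lung markers, led by SFTPB, went from 634 and 640 to 136 and 134 CPM at day 38, with none of the 6 tested called higher and 2 lower, and to 130 and 161 at day 45, with 1 called higher and none lower. The alveolar marker SFTPC was at 0 in every library but 1. The sum of 7 neural markers, led by TUBB3, was between 5.05 and 40.9 CPM, with 1 of 6 tested called higher at day 38 and none at day 45, and that of 4 immune markers, led by CD68, between 3.33 and 40.2 CPM, with CD3E at 0 in all libraries. The immune sum was highest in both day 45 libraries. CD68, a macrophage marker, measured 11.4 and 4.77 CPM (day 38) and 36.4 and 35.9 (day 45) and was called higher (log2 fold change 2.15, adjusted p = 0.000526), as was CD14, at 0 in both day 38 libraries and at 3.19 and 3.93 CPM in those of day 45 (adjusted p = 0.00617). The other immune marker tested was not called in that step, with a log2 fold change of −0.99. Of the exon bases of CD68, 81.6% are shared on the same strand with other genes, so its count is uncertain. The part of these marker changes in the results above was not tested.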

How the data were processed

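The deposited files hold raw read counts per gene symbol, 1 file per library. The authors sorted GFP+ cells, made Ovation Solo libraries, trimmed the reads (Trimmomatic), mapped them to GRCh38 (HISAT2) and counted them per gene (HTSeq, Ensembl annotation GRCh38.p13). Tool versions and the strand setting are not given in the sources used here. An empty line after each gene was dropped. A gene was tested if 2 or more libraries had 5 or more counts. TMM factors (0.896 to 1.07) and the quasi-likelihood fit came from edgeR 4.0.16 in R 4.3.3, with 5 residual degrees of freedom, and SE is the log2 fold change over the square root of F. log2 CPM used a prior count of 2. DESeq2 1.42.0, other scalings and filters, fits of 4 libraries and single libraries left out were alternatives. The script was tested on simulated data for day 38 against day 31: 60% of genes changed by a log2 fold of 1 and 89% of those changed by 2 were recovered among 20200 genes, with 5 false calls in 154.

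GENCODE 44 models, found for 91.1% of symbols, gave positions and exon lengths. Besides the 10 genes, a gene was named if called in a step and among the 3 of its list with the largest change there, or among the 3 of its list with the highest mean CPM; kinases, phosphatase subunits and defining markers could be named at any value. Some genes that this rule would name are counted with their lists but not reported here. The 10 genes, the lists and the alternatives were chosen with earlier results of these data known. Replicates correlated at r between 0.94 and 0.97 on log2 CPM and differed by more than sampling noise.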

Additional observations from a re-analysis of the deposited data

How the results depend on the processing

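Of 850 values of single members under the alternatives, 814 kept their direction and their side of the threshold, 1 lost its call, 10 gained one and 25 turned sign, not counting an added limit of 1 on the absolute log2 fold change. The calls of ATF4, ATF5, TRIB3, DDIT4 and PSAT1 in the last 2 steps held under every alternative run, except that of ATF4, whose 0.92 is under that limit. With a library left out its day has a single library, assumed to vary like the others. Where a value turned or a call changed, the cause was not tested.

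The number of genes called fell under an added limit on the absolute log2 fold change of at least 1. It went to 1183 from 2296 for day 23 against 16, 282 from 473 for day 31 against 23, 1691 from 3160 for day 38 against 31, 1202 from 2353 for day 45 against 38, and 3252 from 5175 for day 45 against 16. Leaving out libraries in turn gave 1350 to 2383, 206 to 646, 1764 to 3614, 1166 to 2816 and 3969 to 5222 in the same order, and 6331 to 7763 (from 7628) over all days. Scaling by library size alone shifted the median of all genes between day 31 and day 38 to −0.20.

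Of the members, 1 (TRIB3) was called higher for day 23 against 16 without a low-count filter, as was 1 under the replicate block, and 0 to 1 with libraries left out. The count lower there was 1 to 2. For day 45 against 38, 1 (DDIT3) was called higher under the limit on fold change, and 1 to 2 with libraries left out, the call of DDIT3 being lost without day 38 replicate 2. For day 45 against 16, 3 were called higher under that limit, without ATF4 (0.90). DDIT4 was called lower, the 1 member so called, without a filter (−0.70) and under the replicate block (−0.68), and 0 to 1 members were with libraries left out (DDIT4 at −1.07 without day 16 replicate 2 and −1.25 without day 45 replicate 1). For day 38 against 31, 4 to 5 were called higher, ASNS being added at 8.38 without day 31 replicate 2, and CHAC1 was called in a fit of the 4 libraries alone (1.42). TRIB3 at day 23 was called at 2.88 without day 23 replicate 1, and DDIT3 at −1.06. Over all days 6 to 8 members were called.

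The replicate numbers do not pair the samples: deviations of libraries with the same number correlated between −0.032 and 0.020 over 10 pairs of days. With the replicate number as a block, the changed calls were TRIB3 for day 23 against 16 (1.97) and DDIT4 for day 45 against 16, both gained, and no other call of a member between 2 days changed, while the test over all days called 8 members.

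No log2 fold change that turned sign was called in either fit. For each such gene the range with libraries left out follows. For day 23 against 16 it was −7.22 (without day 23 replicate 1) to 0.87 (without day 16 replicate 2) for ASNS, −1.46 to 0.000502 (without day 16 replicate 1) for CHAC1, −0.22 (without day 23 replicate 2) to 0.51 for PSAT1, −0.40 to 0.045 (without day 23 replicate 1) for SESN2, and −0.94 (without day 23 replicate 2) to 2.88 for TRIB3. For day 31 against 23 it was −6.36 (without day 31 replicate 2) to 6.63 for ASNS, −0.062 (without day 23 replicate 2) to 0.17 for ATF4, −0.45 to 0.28 (without day 31 replicate 2) for ATF5, −0.23 (without day 31 replicate 2) to 0.30 for PHGDH, −0.32 to 0.41 (without day 23 replicate 2) for PSAT1, −0.28 (without day 31 replicate 2) to 0.32 for SESN2, and −0.74 (without day 31 replicate 1) to 3.26 for TRIB3. PSAT1 in that step was also 0.023 without TMM, 0.020 under the replicate block and 0.0029 with upper-quartile factors. For day 45 against 16, PHGDH ranged from −0.082 (without day 45 replicate 2) to 0.47. For day 45 against 38, without day 45 replicate 1 ASNS was −0.18 and SESN2 −0.077, and the highest values were 1.19 and 0.21.

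Depth limits what can be seen below 0.307 to 0.436 CPM, which is 3 counts in a library.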

Other observations

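Some p53 targets and regulators of mTORC1, the complex that SESN2 and DDIT4 restrain, were called. CDKN1A, the cell cycle inhibitor p21, measured 12.1 and 10.6 CPM (day 16), 26.7 and 15.6 (day 23), 21.5 and 24.4 (day 31), 103 and 78.3 (day 38), and 215 and 162 (day 45). Days 38 and 45 did not overlap each other or the earlier days, and CDKN1A rose in both last steps (log2 fold change 1.98, adjusted p = 1.78e-08, and 1.06, adjusted p = 0.00041). GADD45A rose between day 38 and day 45 (log2 fold change 1.92, adjusted p = 7.9e-08), the step in which ATF4 and DDIT3 rose. It measured 58.3 and 60.2 CPM (day 16), 47.8 and 48.5 (day 23), 21.4 and 28 (day 31), 22.6 and 22.8 (day 38), and 73.8 and 97.4 (day 45). It had fallen between day 23 and day 31 (log2 fold change −0.96, adjusted p = 0.00877). Day 45 was not called against day 16 (0.53, adjusted p = 0.063). Of 7 p53 targets, 1 was called higher and 1 lower between day 31 and day 38, and 2 higher and none lower between day 38 and day 45, against 8.8% and 6.23%, and 4.85% and 6.35%, of all genes. SESN3, a relative of SESN2, fell from 424 and 475 CPM at day 38 to 258 and 289 at day 45 (log2 fold change −0.72, adjusted p = 3.87e-05). DEPTOR, an inhibitor within mTOR complexes, rose between day 31 and day 38 (log2 fold change 1.95, adjusted p = 0.000266), as DDIT4 did, and was at 29 and 28.8 CPM at day 45. It was the 1 gene of 9 regulators and components of mTORC1 called higher in that step, and none was called lower, a share near that of all genes.

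Of 8 proliferation genes, 1 was called higher and 1 lower between day 31 and day 38, and none higher and 3 lower between day 38 and day 45. MKI67 went from 173 and 163 CPM at day 38 to 81.5 and 123 at day 45 (log2 fold change −0.71, adjusted p = 0.00218).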
